A study of Mus musculus with 4 samples.

Results

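The genes described here carry glucose to pyruvate and lactate, bear on the use of pyruvate inside the mitochondrion, or belong to the response to low oxygen. They are 36 genes named by symbol, and all 36 were found among the 31053 genes of the authors' feature table. scRNA-Seq was performed on B cells purified from the spleens of WT mice after 2 kinds of culture, with 2 samples each. Bregs-CpG were kept for 3 days with CpG B ODN 1668, an agonist of the receptor TLR9. Bregs-TLR had the same 3 days with CpG, to which LPS (an agonist of TLR4), PMA, and ionomycin were added for the last 5 hours. All cells had therefore seen CpG, no unstimulated B cells were among the samples, and whether the samples came from separate mice is not stated in the labels.

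The barcodes end in a number from 5 to 8 that names the library but not the sample. Nothing in the labels ties such a number to Bregs-CpG or to Bregs-TLR. Differences between the conditions were therefore not tested, and each value below is that of a library. A UMI (unique molecular identifier) stands for 1 captured RNA molecule. Of 19920 cells, 18534 were kept, those in which 1000 genes or more were detected and mitochondrial UMIs made up less than 10%. Libraries 5, 6, 7, and 8 held 4196, 4714, 5621, and 4003 of these cells, with 44842982 to 63638158 UMIs in all and medians of 8752 to 10355 UMIs per cell. A pair of libraries shared between 1 and 8 barcode sequences. The libraries differed far beyond the genes described here. The median mitochondrial share was 7.22%, 7.18%, 4.61%, and 4.65%, and the summed level of 4 B cell markers (Cd79a, Cd79b, Ms4a1, and Pax5) was 6903, 7157, 1443, and 1437 CPM (UMIs per 1000000 UMIs), all 4 being at least 2-fold apart. Summed markers of T cells reached at most 0.788 CPM, those of NK cells were at 0, and those of myeloid cells lay between 3.13 and 4.74 CPM with 4 of 8, Lyz2, C1qa, S100a8, and S100a9, at 0 throughout. Of 4 globin genes, Hba-a1 and Hba-a2 were at 0 and Hbb-bt gave nearly all of a summed 4.59, 4.30, 219, and 285 CPM. The 7 plasma cell markers summed to 1614, 1779, 390 and 339 CPM, and the 12 S-phase genes to 440, 459, 831, and 794 CPM. Mzb1 alone gave 1441, 1548, 154, and 157 CPM of the plasma cell sum. Of the 6 plasma cell markers with at least 10 UMIs, 4 were highest in library 5 or 6. The other 2, Xbp1 (84.7, 91.7, 112, and 107 CPM) and Sdc1 (0.201, 0.213, 7.45, and 6.15 CPM), were highest in library 7. The part of these differences in the values below was not tested.

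Glycolysis splits glucose into pyruvate in the cytosol. Glucose transporters bring the sugar in, hexokinase traps it as glucose 6-phosphate, phosphofructokinase commits it to the pathway, and pyruvate kinase makes pyruvate. Lactate dehydrogenase turns pyruvate into lactate and regains NAD+, and monocarboxylate transporters carry lactate across the cell membrane. Pyruvate dehydrogenase kinases inhibit the enzyme that turns pyruvate into acetyl-CoA inside the mitochondrion. HIF-1α, encoded by Hif1a, is the transcription factor of the low-oxygen response and switches on many of these genes; prolyl hydroxylases mark it for destruction when oxygen is present. Lymphocytes are known to take up more glucose and release more lactate after activation.

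A level is given in CPM, the UMIs of a gene per 1000000 UMIs of all genes in the kept cells of a library. Since only the 3′ end of each RNA is read and each molecule counts once, levels of genes can be set side by side without correction for length, apart from differences in capture. Of the 36 genes, 34 had at least 10 UMIs. The hexokinase Hk3 had 3, 1, 1, and 0 UMIs, and Fbp1, the fructose bisphosphatase that runs a step of glycolysis backwards, had 0 UMIs in 18534 cells. Over the 34 genes the highest library was at least 2-fold above the lowest in 20 (58.8%) and at least 4-fold in 12, with a median log2 ratio of 1.32. Of all 13918 genes with at least 10 UMIs, 44.9% were at least 2-fold apart and the median was 0.89. With at least 100 UMIs the share of all genes was 35.6%. The highest and lowest library were picked for each gene by its own values, so these ratios are descriptions and carry no test. Intervals are at 95%, exact Poisson for CPM, exact conditional for ratios, and Clopper-Pearson for shares. They cover counting error only, with each UMI taken as independent, and not variation between cells, mice, or cultures.

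**Figure D1:**
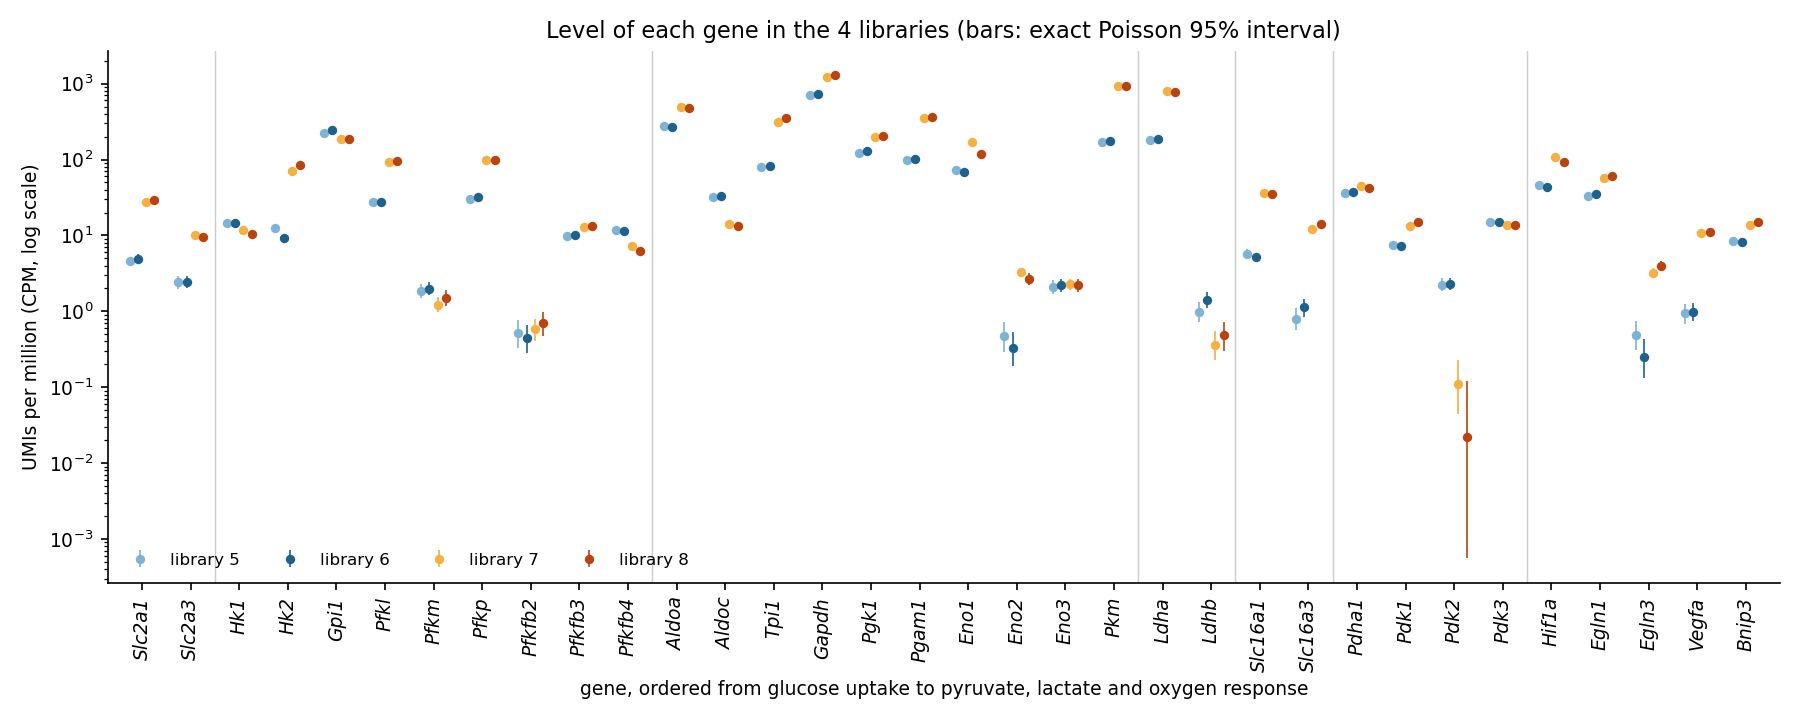
Level of the 34 genes with at least 10 UMIs, in CPM on a log scale, for libraries 5 to 8 (points, with exact Poisson 95% intervals as bars). Grey lines separate glucose uptake, the steps to fructose bisphosphate with their regulators, the steps to pyruvate, lactate dehydrogenase, lactate transport, control of pyruvate dehydrogenase, and the oxygen response; Pkm and Ldha lie between 173 and 188 CPM in libraries 5 and 6 and between 783 and 929 CPM in libraries 7 and 8.

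Between pairs of libraries the counts were uneven. From library 5 to library 6 none of the 34 genes was 2-fold higher or lower (2.13% and 2% of all genes were), and 24 of the 34 ratio intervals included 0 on the log2 scale. From library 7 to library 8 none was 2-fold higher (1.85% of all genes) and 1, Pdk2, was lower (3.24%), and 22 intervals included 0. That of Pdk2 was among these 22, with a log2 ratio of -2.33 (-7.82 to 0.63) from 7 and 1 UMIs. Libraries 7 and 8 were both above libraries 5 and 6 for 26 of the 34 genes (45.3% of all genes) and both below for 8 (40.3%). The 4 ratio intervals all excluded 0 for 24 of the 26 and for 6 of the 8, and the exceptions were Eno3, Pfkfb2, Pfkm, and Pdk3. In each of the other 4 pairs, 16 genes were 2-fold higher and 3 were 2-fold lower in the library with the higher number. The share of all genes that was 2-fold higher was 17.5% (7 over 5), 15.4% (8 over 5), 16.7% (7 over 6), and 15.1% (8 over 6), and the share that was 2-fold lower was 18.5%, 19.8%, 19.1%, and 20%. Over the 34 genes the median log2 ratio was 0.84, 0.89, 0.86, and 0.86 in these pairs, against 0.12, 0.06, 0.08, and 0.01 over all genes. Other ways to scale the libraries shifted every ratio of a library to library 5 by at most 0.19 on the log2 scale. Under these scalings the count of genes 2-fold higher stayed at 16 for library 7 over library 5 or 6. It was 14 for library 8 over library 5, and 14 or 15 for library 8 over library 6. The count 2-fold lower stayed at 3 except for library 8 over library 5 or 6 under 1 scaling. There it was 4, with immunoglobulin, ribosomal protein, and mitochondrial genes left out of the total.

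**Figure D2:**
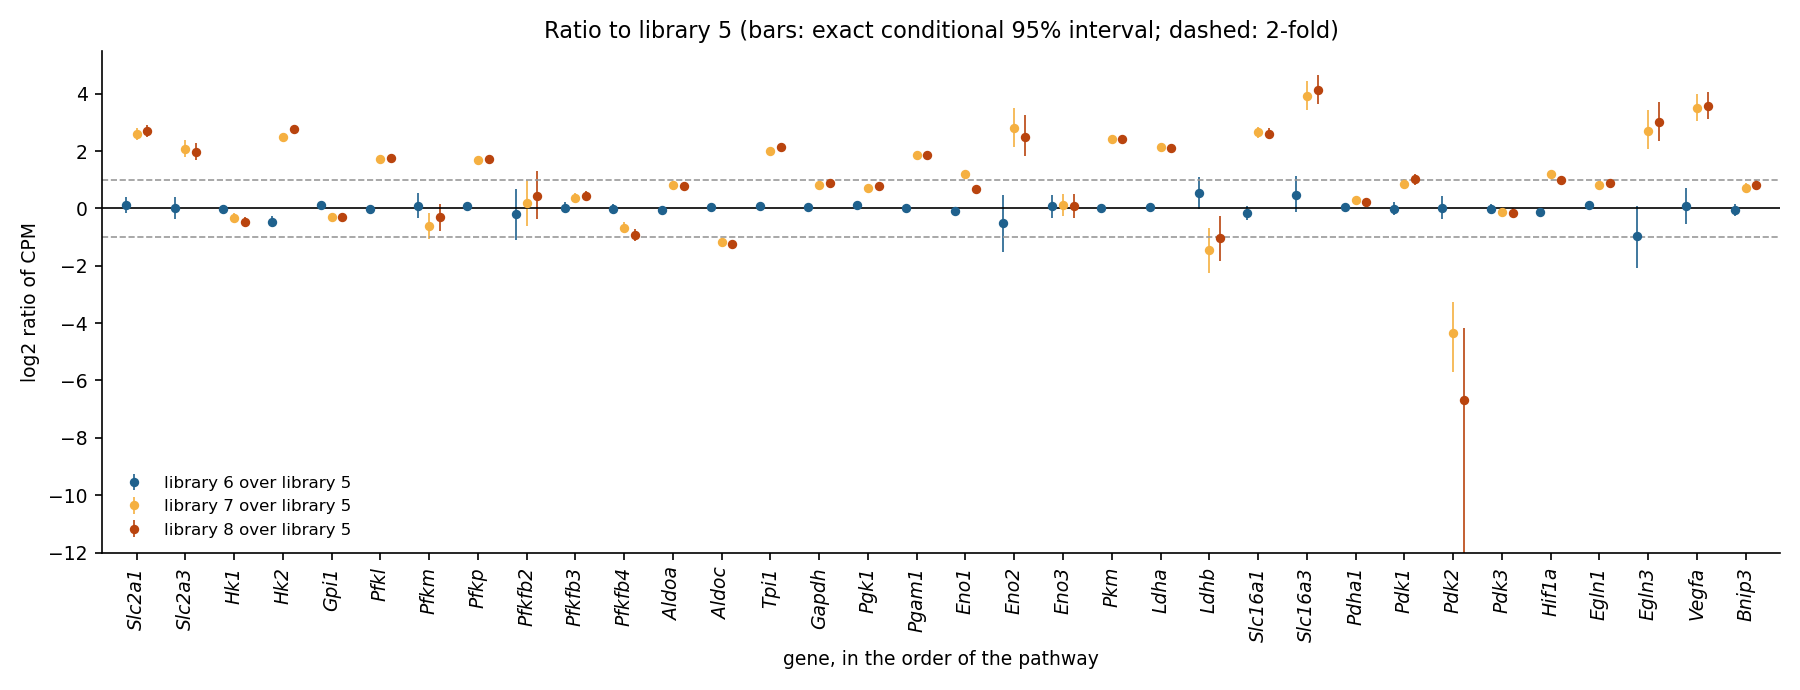
Log2 ratio of CPM of libraries 6, 7, and 8 to library 5 for the 34 genes, with exact conditional 95% intervals; dashed lines mark 2-fold. Library 6 lies within 2-fold of library 5 for each gene, whereas 15 genes lie above the upper line in both libraries 7 and 8, Eno1 in library 7 and Pdk1 in library 8 alone, and 3 (Aldoc, Ldhb, and Pdk2) below the lower one in both; the lower end of the interval of Pdk2 in library 8, which rests on 1 UMI, runs off the axis.

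For glucose uptake, the RNA of 2 transporters was counted. Slc2a1, which encodes the widespread transporter GLUT1, stood at 4.57, 4.96, 27.9, and 29.7 CPM in libraries 5, 6, 7, and 8. It was higher in libraries 7 and 8 than in either of the others, and library 8 was 6.49-fold above library 5 (5.60 to 7.56). Slc2a3, which encodes the high-affinity GLUT3, had 2.41, 2.44, 10.2, and 9.50 CPM, 4.24-fold from library 5 to library 7 (3.45 to 5.25). Slc2a1 gave the larger share of the UMIs of both in every library, from 65.5% in library 5 to 75.8% in library 8.

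Hexokinases phosphorylate glucose on entry. Hk1, the widely expressed form bound to mitochondria, had 14.6, 14.4, 11.7, and 10.49 CPM. Its levels lay within 1.39-fold (1.24 to 1.57), lowest in library 8. Hk2, the form known to be induced by growth signals and low oxygen, had 12.6, 9.20, 70.2, and 85.1 CPM. Library 8 was 9.25-fold above library 6 (8.41 to 10.2), and libraries 7 and 8 were both above the others. Hk1 held 53.6% (50.7 to 56.4) of hexokinase UMIs in library 5 and 61.0% in library 6, but 14.3% in library 7 and 10.97% (10.1 to 11.9) in library 8. The leading hexokinase was therefore Hk1 in libraries 5 and 6 and Hk2 in libraries 7 and 8, while the level of Hk1 itself lay within 1.39-fold. In cells thinned to 5000 UMIs, Hk2 had at least 1 UMI in 4.88%, 3.87%, 28.2%, and 32.7% of cells (10.2%, 8.27%, 48.0%, and 54.2% unthinned) and Hk1 in 7.11%, 6.67%, 5.70%, and 4.86%. Both were seen in 1.74% of the thinned cells of library 7, where the product of the single shares is 1.61%, and in 1.59% of those of library 8, where it is 1.59%. No group of cells known to lack these genes was set apart, so the part of free RNA in such shares was not tested.

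The promoters of Hk1 and Hk2 are shown because these isozymes changed places as leader. They are the 250 bases before the first RefSeq start listed for each gene on GRCm38.p6, chr10:62379909-62380158 and chr6:82774455-82774704, both on the minus strand and written 5′ to 3′. Capitals mark the core of the hypoxia response element, ACGTG or GCGTG on either strand (CACGT or CACGC as printed).
Hk1: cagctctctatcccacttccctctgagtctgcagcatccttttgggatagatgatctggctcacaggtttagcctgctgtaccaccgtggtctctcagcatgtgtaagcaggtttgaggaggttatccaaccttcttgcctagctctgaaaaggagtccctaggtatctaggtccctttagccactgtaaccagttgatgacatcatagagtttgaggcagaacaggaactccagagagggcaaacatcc
Hk2: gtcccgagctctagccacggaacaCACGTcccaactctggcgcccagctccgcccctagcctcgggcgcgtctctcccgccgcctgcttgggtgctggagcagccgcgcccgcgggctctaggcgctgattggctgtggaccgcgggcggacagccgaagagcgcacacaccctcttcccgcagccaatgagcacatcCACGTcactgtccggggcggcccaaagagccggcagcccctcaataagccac
The Hk2 window held 2 matches and the Hk1 window 0, although a second window listed for Hk1, before a start inside the gene, held 3. Of the 36 genes, 35 matched the RefSeq table (Slc2a3 was the exception), and 27 of the 35 first-listed windows (77.1%) held the motif, against 38.6% of the 27025 first-listed windows of all genes. Those without a match were Hk1, Gpi1, Fbp1, Aldoa, Tpi1, Eno2, Pkm, and Vegfa, of which the last 5 genes were higher in libraries 7 and 8. Later windows of Aldoa, Pkm, and Vegfa held 1 or 2 matches. First-listed windows of Pfkm, Pfkfb4, Aldoc, Ldhb, Pdk2, and Pdk3, which were lower there, held 1 to 4. Whether the motif goes with the direction was not tested. The motif holds CG, base composition was not matched, and a match is a description of letters, not of binding. Many of the 36 genes are known to be switched on by HIF-1α, so the list was not drawn up without regard to its motif. The part of this choice in the share was not tested. CACGTG, the E-box, counts as a match on both strands and stood in 6.02% of all windows.

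Glucose 6-phosphate isomerase, Gpi1, makes fructose 6-phosphate. It was among the genes that were not higher in libraries 7 and 8, with 226, 247, 184, and 184 CPM, 1.34-fold from library 8 to library 6 (1.31 to 1.38). Phosphofructokinase, the committed step, was read as its liver, muscle, and platelet forms. Pfkl had 27.9, 27.6, 92.1, and 95.1 CPM and was 3.44-fold higher in library 8 than in library 6 (3.24 to 3.66). Pfkp had 30.2, 31.8, 98.2, and 98.6 CPM and was 3.27-fold higher in library 8 than in library 5 (3.08 to 3.48). Both forms were thus higher in libraries 7 and 8 and kept nearly even shares, Pfkp holding 50.3%, 51.8%, 51.3%, and 50.5% of the UMIs of the family. Pfkm stayed scarce, with 1.87, 1.99, 1.23, and 1.51 CPM.

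The PFKFB enzymes set the level of fructose 2,6-bisphosphate, the main activator of phosphofructokinase. Pfkfb3, the form with the strongest kinase activity, had 9.95, 10.1, 12.9, and 13.5 CPM, and Pfkfb4 had 11.6, 11.4, 7.32, and 6.17 CPM. Neither reached 2-fold (1.36-fold and 1.88-fold), but their order over the libraries was opposite, and Pfkfb4 held 52.6% and 51.8% of the UMIs of the family in libraries 5 and 6 whereas Pfkfb3 held 62.0% and 66.2% in libraries 7 and 8. In library 6 the shares of both were close, at 46.2% (43.3 to 49.2) for Pfkfb3. Pfkfb2 had 23, 23, 37, and 32 UMIs, too few to tell the libraries apart.

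Aldolase cuts the 6-carbon sugar. Aldoa, the main form, had 273, 265, 486, and 475 CPM, 1.83-fold from library 6 to library 7 (1.80 to 1.87). Aldoc, the form typical of brain, went the other way, with 31.9, 32.8, 14.3, and 13.4 CPM, 2.45-fold higher in library 6 than in library 8 (2.24 to 2.70). Its share of aldolase UMIs was 10.47%, 11.01%, 2.87%, and 2.73%. Triose phosphate isomerase, Tpi1, had 78.5, 82.9, 316, and 347 CPM, and library 8 was 4.42-fold above library 5 (4.27 to 4.59).

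The later steps of the pathway pay back ATP, and their genes did not scale alike. Gapdh, the dehydrogenase of glyceraldehyde 3-phosphate, was the most abundant of the 36 genes in every library, with 699, 731, 1224, and 1293 CPM, 1.85-fold (1.83 to 1.88) from library 5 to library 8. Pgk1, which makes the first ATP, had 121, 129.7, 197, and 205 CPM, 1.70-fold (1.65 to 1.76). Pgam1, the mutase after it, had 98.9, 101, 357, and 362 CPM, 3.66-fold (3.54 to 3.78). The ratios of neighbouring steps thus ran from under 2-fold to over 3-fold. Bpgm, which diverts the substrate of Pgk1 into 2,3-bisphosphoglycerate and is not among the 36, had 27.4, 26.4, 12.3, and 10.9 CPM, lower in libraries 7 and 8.

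Enolase makes phosphoenolpyruvate. Eno1 held at least 96.0% of enolase UMIs in each library and had 73.5, 68.3, 170.5, and 117 CPM. Library 8 was below library 7 by 0.54 on the log2 scale (0.50 to 0.59), the widest difference between these libraries among the genes whose interval excluded 0. Eno1b, a near-identical copy, had 0.401, 0.290, 1.21, and 0.679 CPM, and reads that fit both copies could have affected these counts. Eno2, the neuronal form, was rare but had 21, 17, 207, and 121 UMIs, 9.88-fold from library 6 to library 7 (6.02 to 17.3). Eno3, the muscle form, had 2.10, 2.21, 2.28, and 2.21 CPM, with no difference beyond counting error (1.09-fold, 0.833 to 1.42).

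Pyruvate kinase makes pyruvate and lactate dehydrogenase reduces it to lactate, and both were higher in libraries 7 and 8. Pkm had 173, 176, 923, and 929 CPM, 5.38-fold from library 5 to library 8 (5.25 to 5.51). In cells thinned to 5000 UMIs, Pkm had at least 1 UMI in 54.0%, 55.3%, 97.7%, and 97.8% of cells (74.3%, 75.7%, 99.5%, and 99.2% unthinned). The M1 and M2 forms of pyruvate kinase share their 3′ end and were not told apart. Ldha, the subunit that favours lactate, had 181, 188, 808, and 783 CPM, 4.46-fold from library 5 to library 7 (4.35 to 4.56). Ldhb, the subunit typical of heart, had 44, 73, 23, and 22 UMIs and was lower in libraries 7 and 8, 3.91-fold from library 7 to library 6 (2.42 to 6.55). Ldha held between 99.25% and 99.96% of their UMIs. Gapdh, Pgk1, Tpi1, Pgam1, Aldoa, Pkm, and Ldha have processed pseudogenes, and reads that fit these too could have affected the counts.

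Lactate leaves the cell through monocarboxylate transporters. Slc16a1, which encodes MCT1, had 5.78, 5.19, 36.3, and 35.2 CPM, and library 7 was 7.003-fold above library 6 (6.17 to 7.98). Slc16a3, which encodes MCT4, the exporter typical of strongly glycolytic cells, had 36, 58, 776, and 639 UMIs, or 0.803, 1.12, 12.2, and 14.0 CPM. Library 8 was 17.4-fold above library 5 (12.5 to 25.1). Slc16a1 led in every library, but the share of Slc16a3 was 12.2% (8.70 to 16.5), 17.8%, 25.1%, and 28.45% (26.6 to 30.4). The window before the start of Slc16a1 is shown because this gene had more UMIs than Slc16a3 in every library and differed 7.003-fold. It lies at chr3:104638414-104638663 on the plus strand of GRCm38.p6, is printed with the same capitals, and held 4 matches, of which an E-box gave 2. The window of Slc16a3, which had the wider ratio and is not printed, held 2 matches.
Slc16a1: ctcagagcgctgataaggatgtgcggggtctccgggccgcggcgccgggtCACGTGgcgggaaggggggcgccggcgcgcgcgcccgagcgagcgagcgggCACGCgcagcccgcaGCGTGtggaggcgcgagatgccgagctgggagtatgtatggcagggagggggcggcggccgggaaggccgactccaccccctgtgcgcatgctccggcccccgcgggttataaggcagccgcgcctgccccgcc

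Pyruvate dehydrogenase, whose E1α subunit is Pdha1, uses pyruvate inside the mitochondrion and is inhibited by phosphorylation. Pdha1 had 35.97, 37.0, 44.2, and 41.9 CPM, 1.23-fold in all (1.15 to 1.31). Among its kinases, Pdk1 had 7.38, 7.36, 13.3, and 14.9 CPM, 2.03-fold from library 6 to library 8 (1.78 to 2.30), just past the 2-fold line. Pdk3 had 15.0, 15.0, 13.9, and 13.6 CPM, 1.11-fold, with an interval that included 1 (0.990 to 1.24). Pdk2 had 101, 118, 7, and 1 UMIs, or 2.25, 2.29, 0.110, and 0.0219 CPM, and was at or near the counting limit in libraries 7 and 8. The ratio of library 6 to library 8 rests on 1 UMI and has an interval from 18.4 to 4157. Pdk3 led the family with 60.9%, 60.8%, and 50.9% of UMIs in libraries 5, 6, and 7, and Pdk1 led in library 8 with 52.3% (49.6 to 55.0). The lead was narrow in libraries 7 and 8, where the intervals of both overlapped. Pdk1 held 48.6% (46.3 to 51.0) in library 7, and Pdk3 held 47.6% (44.9 to 50.4) in library 8. The share of Pdk2 was 9.14%, 9.28%, 0.403%, and 0.0768%.

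The promoters of Pdk1 and Pdk2 are printed because these kinases of the same enzyme differed in opposite directions. The windows are chr2:71872974-71873223 on the plus strand and chr11:95041372-95041621 on the minus strand.
Pdk1: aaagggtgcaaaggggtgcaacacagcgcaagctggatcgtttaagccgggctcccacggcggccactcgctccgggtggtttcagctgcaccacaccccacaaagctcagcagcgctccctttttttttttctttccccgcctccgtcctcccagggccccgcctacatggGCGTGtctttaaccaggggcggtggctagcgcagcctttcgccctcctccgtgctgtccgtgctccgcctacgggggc
Pdk2: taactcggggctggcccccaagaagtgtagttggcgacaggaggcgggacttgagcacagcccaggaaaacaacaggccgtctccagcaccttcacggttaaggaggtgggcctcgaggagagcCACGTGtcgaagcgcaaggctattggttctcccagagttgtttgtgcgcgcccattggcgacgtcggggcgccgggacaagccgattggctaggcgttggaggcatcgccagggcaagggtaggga
The Pdk1 window held 1 match, and the Pdk2 window held an E-box, which counts as 2. A second window listed for each of these genes held 0 matches. Whether the motif bears on their levels was not tested.

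**Figure D3:**
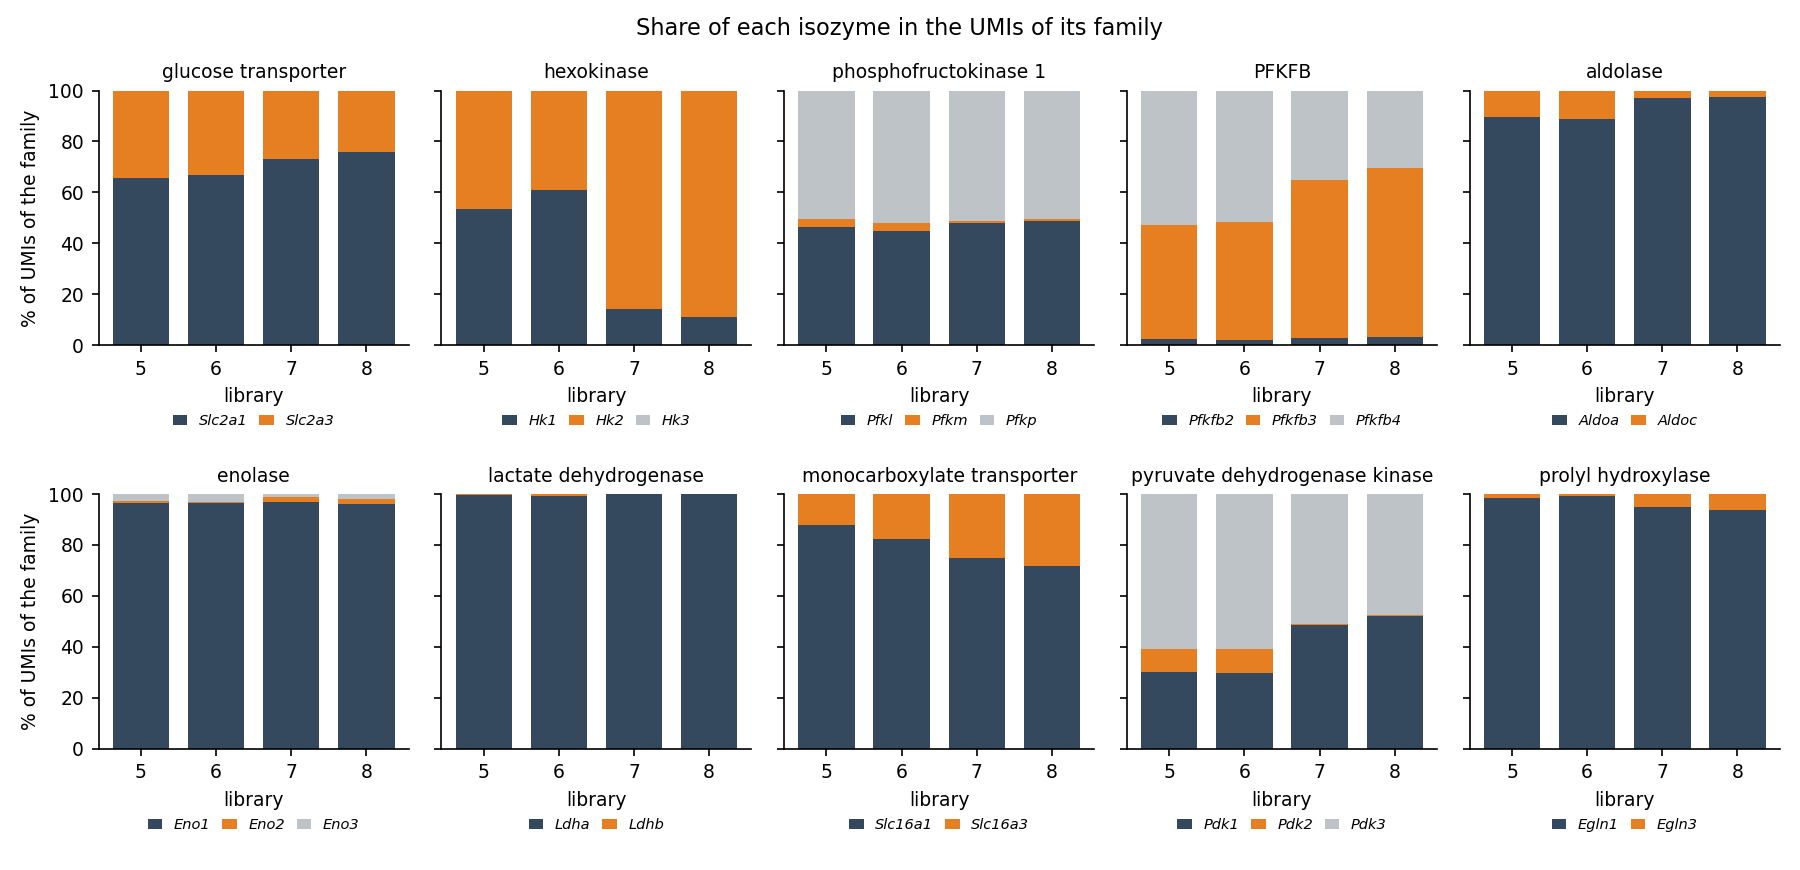
Share of each isozyme in the UMIs of its family, in percent, for 10 families in libraries 5 to 8 (stacked bars, each adding up to 100). The leader changes in hexokinase, where Hk1 holds 53.6% and 61.0% in libraries 5 and 6 but 14.3% and 10.97% in libraries 7 and 8, in PFKFB, and in the pyruvate dehydrogenase kinases. In the last family the intervals of Pdk1 and Pdk3 overlap in libraries 7 and 8.

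Over the 10 families with more than 1 isozyme among the 36 genes, the same isozyme had the most UMIs in all 4 libraries in 7. These were Slc2a1, Pfkp, Aldoa, Eno1, Ldha, Slc16a1, and the prolyl hydroxylase Egln1, set against Egln3 alone. With library 8 left out there were 8 such families, since Pdk3 then led its family throughout. Egln2, a prolyl hydroxylase outside the 36 genes, was above Egln1 in every library, with 112, 122, 76.2, and 75.5 CPM. The lead of Pfkp was narrow. In library 8 it held 50.5% (49.5 to 51.6) and Pfkl 48.7% (47.7 to 49.8), and in library 5 their intervals overlapped too. Of 16 other isozymes of these steps, 5 had no UMI in any library, among them the liver form Pklr and the kinase Pdk4, and 5 had at least 10 UMIs. Of these 5, Eno4 had the widest ratio (11.5-fold, 2.88 to 99.96, library 6 over library 8) and Ldhd the narrowest (1.66-fold, 0.711 to 3.92).

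For the response to low oxygen, the RNA of Hif1a, of the hydroxylases Egln1 and Egln3, and of target genes was counted. The data hold RNA only, so HIF-1α protein was not read. Hif1a had 46.2, 42.9, 107, and 92.8 CPM, 2.50-fold from library 6 to library 7 (2.38 to 2.62), and both libraries 7 and 8 were above the others. Egln1, which encodes the main oxygen sensor PHD2, had 32.9, 35.4, 57.7, and 60.8 CPM, 1.84-fold (1.73 to 1.97). Egln3, which encodes PHD3 and is itself a target of HIF-1, had 22, 13, 205, and 180 UMIs, 15.7-fold from library 6 to library 8 (8.93 to 30.0). Its share beside Egln1 was 1.47%, 0.706%, 5.29%, and 6.09%. Vegfa, the growth factor of blood vessels, had 42, 51, 682, and 504 UMIs, 11.8-fold from library 5 to library 8 (8.59 to 16.6). Without mitosis-rich, S-phase-rich, and Jchain-rich cells, classes described further on, the ratio of Vegfa was 33.0-fold. Bnip3, a mitophagy receptor and HIF-1 target, had 8.41, 8.10, 13.7, and 14.9 CPM, 1.84-fold (1.62 to 2.08). The window before Egln3, chr12:54203875-54204124 on the minus strand, is shown as that of the widest ratio in this group and held 1 match.
Egln3: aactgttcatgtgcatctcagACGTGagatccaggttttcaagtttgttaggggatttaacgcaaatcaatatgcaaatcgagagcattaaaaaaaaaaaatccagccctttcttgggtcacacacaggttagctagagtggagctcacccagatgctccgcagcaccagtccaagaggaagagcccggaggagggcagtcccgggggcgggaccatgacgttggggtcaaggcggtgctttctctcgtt

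Other genes of the same pathways were counted from lists of the pathway, which were chosen with earlier results of these data known. Their counts stand beside the 44.9% of all genes that were at least 2-fold apart, made up of 20.9% that were highest in library 7 or 8 and 24% in library 5 or 6. Of 12 further HIF-1 targets, 8 were at least 2-fold apart. Of these 8, 5 were highest in library 7 or 8 and 3 in library 5 or 6, so the targets did not share a direction. P4ha2 had the widest ratio but rested on 1, 0, 8, and 11 UMIs, and Ddit4 had the narrowest (1.21-fold, 1.08 to 1.36). Ankrd37, named after its values were seen, had 9.66, 7.24, 52.1, and 53.3 CPM, whereas Bnip3l, a relative of Bnip3 named in the same way, had 108, 112, 49.6, and 50.1 CPM. Of 6 regulators of HIF, 1 was 2-fold apart, Hif3a (0.781, 1.03, 0.519, and 0.504 CPM), and Hif1an had the narrowest ratio (1.08-fold, 0.984 to 1.19). Of 9 genes of pyruvate dehydrogenase, its phosphatases, and the mitochondrial pyruvate carrier, 2 were 2-fold apart. The carrier subunit Mpc2 had 193, 200.01, 70.7, and 70.2 CPM, the subunit Dlat had 18.4, 18.96, 37.7, and 37.3 CPM, and Pdhb had the narrowest ratio (1.06-fold). Of 7 genes of the pentose phosphate pathway, which branches off at glucose 6-phosphate, 1 was 2-fold apart, Pgls (452, 453, 189, and 186 CPM), and Rpia had the narrowest ratio (1.21-fold).

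Summed over the 19 genes from hexokinase to lactate dehydrogenase, the pathway took 0.205% (0.203 to 0.206) of all UMIs in library 5, 0.211% in library 6, 0.496% in library 7, and 0.501% (0.498 to 0.503) in library 8. Library 8 was 2.45-fold above library 5 (2.43 to 2.46). The make-up of this sum differed too. Gapdh held 34.1%, 34.6%, 24.7%, and 25.8% of it, Pkm 8.44%, 8.33%, 18.6%, and 18.6%, Ldha 8.86%, 8.89%, 16.3%, and 15.6%, and Gpi1 11.1%, 11.7%, 3.72%, and 3.68%. Gapdh remained the largest gene in every library.

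The difference was spread over the cells and did not come from a few of them. Each cell was thinned to 5000 UMIs, which left out 158, 114, 233, and 157 cells with fewer. The median share of the 19 genes was 0.18%, 0.20%, 0.46%, and 0.46%, and the span from the 10th to the 90th percentile was 0.10% to 0.30%, 0.12% to 0.30%, 0.30% to 0.74%, and 0.28% to 0.76%. Of the cells of libraries 7 and 8, 98.9% and 98.0% were above the median of library 5, and of the cells of libraries 5 and 6, 0.471% and 0.652% were above the median of library 7. Cells with at least 10 Jchain UMIs per 10000, which numbered 20, 34, 50, and 26, had shares of 0.160%, 0.148%, 0.295%, and 0.340%, below the value of all cells of their library in each case. These shares are of all UMIs, immunoglobulin included, and the part of immunoglobulin RNA in them was not tested.

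**Figure D4:**
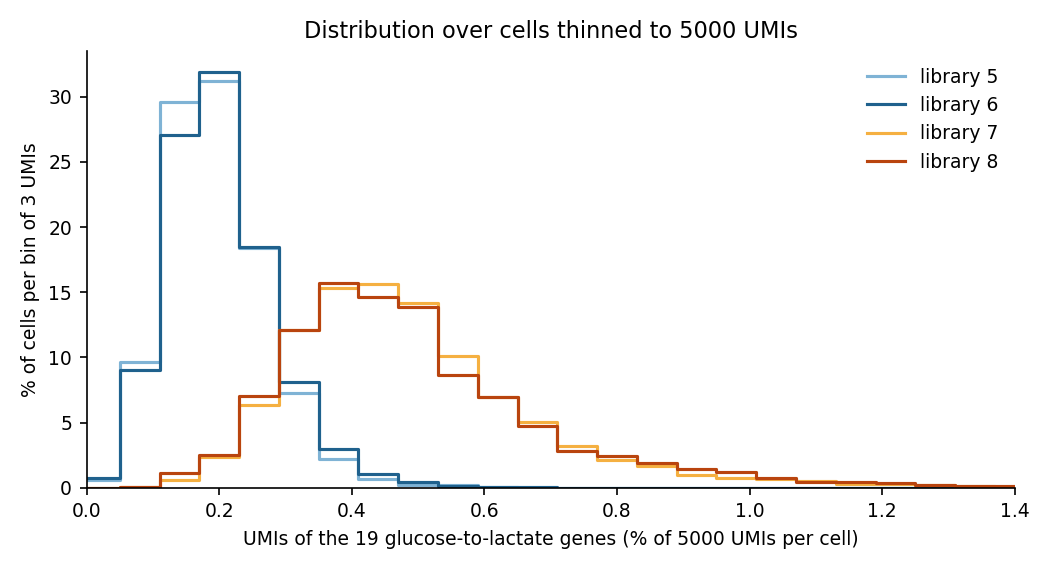
Distribution over cells of the share of UMIs from the 19 glucose-to-lactate genes, in percent of 5000 UMIs per cell, as the percent of the cells of each library in bins of 3 UMIs. Medians are 0.18% and 0.20% in libraries 5 and 6 and 0.46% in libraries 7 and 8, and the pairs of curves overlap little; the axis ends at 1.4%.

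Within each library, cells rich in mitosis or S-phase RNA were compared with the remaining cells. Mitosis-rich cells had at least 10 UMIs per 10000 from 12 mitosis genes and numbered 241, 319, 254, and 226. S-phase-rich cells had at least 20 per 10000 from 12 replication genes, without being mitosis-rich, and numbered 71, 73, 452, and 259. These are ranges of a score and not cell types. Between 0.5 and 2 times the mitosis limit lay 130, 149, 228, and 197 cells, and around the S-phase limit 142, 152, 1247, and 831. Mitosis-rich cells had medians of 15825.5 to 17751 UMIs against 8489.5 to 10011 in the remaining cells, and doublets were not called. S-phase-rich cells had medians of 15155, 14459, 12643, and 12730 UMIs, against 8489.5, 8521, 10011, and 9767 in the remaining cells. They made up 1.69%, 1.55%, 8.04%, and 6.47% of the cells. None of the 34 genes was at least 1.5-fold higher or lower in mitosis-rich cells in all 4 libraries (5.33% and 0.572% of all genes were), and none of 33 was so in S-phase-rich cells (3.66% and 0.332%). With library 7 left out, Aldoc was at least 1.5-fold lower in mitosis-rich cells in each of the other 3. Pfkfb4 was so in S-phase-rich cells, where it had 7, 6, and 14 UMIs in libraries 5, 6, and 8. No test was made in these counts.

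The 19 genes together differed from the remaining cells by log2 ratios of 0.28, 0.36, -0.04, and 0.02 in mitosis-rich cells and of 0.70, 0.55, 0.07, and 0.11 in S-phase-rich cells of libraries 5, 6, 7, and 8. The ratios were thus above 0 in libraries 5 and 6 and near 0 in the others, and whether the libraries differ in them was not tested. The S-phase-rich class also differed between the libraries in its share of cells and in its depth beside the remaining cells. The part of this in the ratios was not tested. In mitosis-rich cells 5 of the 34 genes were above 0 in all 4 libraries and 7 below, against 21.1% and 14.4% of all genes. Pfkp had log2 ratios of 1.42 (1.23 to 1.61), 1.39, 0.36, and 0.50 (0.36 to 0.63) in mitosis-rich cells, above 0 in all 4 libraries. Gapdh, Pgk1, Slc16a1, and Pdk3 were the other genes above 0 in all 4, Gapdh with 0.60, 0.74, 0.23, and 0.23. Below 0 in all 4 were Aldoc, Aldoa, Gpi1, Pfkfb3, Pfkfb4, Pdk1, and Pdha1. These counts take the sign alone. The interval included 0 in every library for Pfkfb4 and Pdha1, and in at least 1 library for Aldoa, Gpi1, Pfkfb3, and Pdk1. Among the genes above 0, Slc16a1 and Pdk3 also had an interval that included 0 in at least 1 library. Aldoc had -1.12 (-1.48 to -0.78), -1.45, -0.54, and -1.26 (-1.95 to -0.65), whereas Aldoa had -0.88, -0.79, -0.18, and -0.01.

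Vegfa showed the widest ratios. In mitosis-rich cells it had 26, 24, 48, and 39 UMIs and log2 ratios of 3.99 (3.00 to 5.04), 2.81 (1.94 to 3.68), 0.04, and -0.11. The 26 UMIs of library 5 lay in 22 of 241 cells and the 24 of library 6 in 22 of 319 cells, with at most 2 UMIs in a cell. Its level in mitosis-rich cells was 5.67, 3.96, 11.0, and 10.3 CPM, against 0.358, 0.562, 10.8, and 11.1 CPM in the remaining cells. In S-phase-rich cells Slc16a1 had 25, 22, 228, and 145 UMIs and log2 ratios of 2.17 (1.502 to 2.77), 2.21 (1.504 to 2.85), 0.14, and 0.31. Hk2 had 2.00 (1.55 to 2.42), 1.09 (0.38 to 1.72), 0.16, and 0.06. Of 33 genes, 11 were above 0 in all 4 libraries and 3 below in S-phase-rich cells, against 15.9% and 13.2% of all genes. Beside Slc16a1 and Hk2, those above were Tpi1, Gapdh, Pgk1, Pgam1, Eno1, Pkm, Ldha, Pdk3, and Egln1, Ldha with 1.12, 0.90, 0.01, and 0.07. Those below were Pfkfb3, Pfkfb4, and Pdk1. Pfkfb4 had 7, 6, 36, and 14 UMIs and log2 ratios of -0.998, -1.14, -0.28, and -0.63, with intervals that included 0 in libraries 5, 7, and 8. The interval of Pdk1 included 0 in every library, and that of Pfkfb3 excluded it in library 8 alone. Among the 11 genes above 0, only Tpi1, Gapdh, and Pkm had intervals that excluded 0 in every library.

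**Figure D5:**
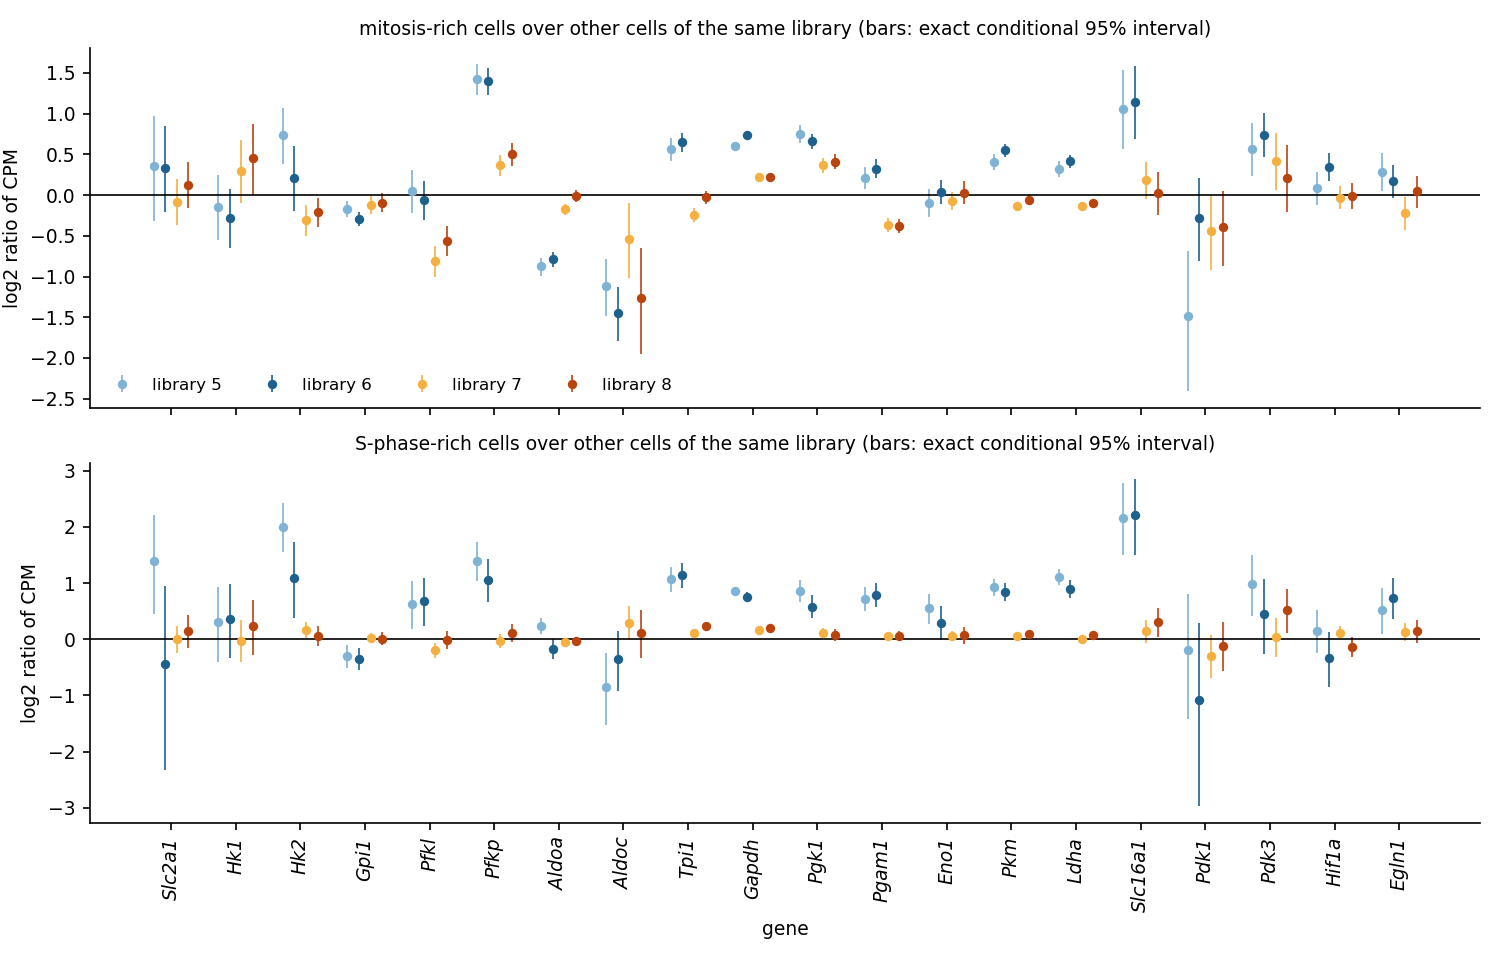
Log2 ratio of CPM in mitosis-rich cells (upper panel) and S-phase-rich cells (lower panel) over the remaining cells of the same library for 20 of the genes, with exact conditional 95% intervals. In the lower panel Slc16a1 and Hk2 lie at 2.17 and 2.00 in library 5 and within 0.31 of 0 in libraries 7 and 8; in the upper panel Aldoc lies below 0 in all 4 libraries.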

How the data were processed

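B cells from mouse spleen were profiled by scRNA-Seq with Chromium Single Cell 3′ chemistry. Per the labels and the submitters' processing notes, the authors demultiplexed reads with bcl2fastq, aligned them to mm10, and counted UMIs with Cell Ranger 3.1.0. They combined the libraries with its aggr step, in which the deeper ones are thinned to the read depth of the shallowest, so that scarce genes lose UMIs. The deposited values are UMI counts per gene and cell, not normalized further.

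Of the 35989 matrix columns, the last 19920 were paired in order with the 19920 listed barcodes. Mean expression shifted most, among all these columns, at the start of library 7 (percentile 100), and the starts of libraries 6 and 8 were at percentiles 93.4 and 96.2. The 16069 columns before them had no listed barcode and were not used. The authors applied the limits of 1000 genes and 10% mitochondrial reads once SAVER-X had imputed the values. Here the counts themselves were filtered. The limits removed 559 and 1110 barcodes, some under both.

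UMIs were summed per library. As libraries cannot be put in a group, no count test between groups was made, and intervals were computed with SciPy 1.17.1 (Python 3.11.15). Genes needed 10 UMIs over the 4 libraries, and 3 UMIs stood for 0 in ratios. Aldoa was taken by its identifier, since a second gene of that symbol had 6 UMIs. Positions are from GENCODE on GRCm38 and promoters from RefSeq on GRCm38.p6. In all, 27 of 29 promoter windows on the minus strand ran into an annotated transcript as read. Alternatives were other limits on cells, TMM factors from edgeR 4.0.16, median-of-ratios factors, another total, weighting by cell, other limits of the cycle classes, and each library left out. The code was tested on simulated counts. All 36 genes are named, and of each further list the genes with the widest and narrowest ratio. Bpgm and Eno1b, among others, are named outside this rule. Of the supporting lists, 2 genes are not reported here and were left out of the sums. Genes and lists were chosen with earlier results of these data known.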

Additional observations from a re-analysis of the deposited data

How the results depend on the processing

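No paired analysis was possible because the barcodes carry library numbers but no sample or replicate numbers. The log2 ratio of library 8 to library 5 for the summed 19 genes was 1.29, and it was 1.34 without mitosis-rich, S-phase-rich, and Jchain-rich cells, 1.33 with the mean of per-cell CPM, and 1.14 where the total left out immunoglobulin, ribosomal protein, and mitochondrial genes. The count of genes lower in mitosis-rich cells in all 4 libraries was 0, and 1 (Aldoc) at double the limit. With each library left out in turn it ranged from 0 to 1, as did the count lower in S-phase-rich cells. The count of genes 2-fold apart stayed between 19 and 20 of 34, and the median log2 ratio between 1.21 and 1.37. Pdk1 was under 2-fold with no filter on cells (0.98), TMM (0.97), median-of-ratios (0.99), and the reduced total (0.89), and Pfkfb4 passed it with the reduced total (1.06). The sign of the ratio of Eno3 between library 7 or 8 and library 5 or 6, and of Pfkfb2 between libraries 7 and 5, turned under some scalings. Eno3 had the libraries interleaved with no filter on cells, TMM, and median-of-ratios, and Pfkfb2 with the reduced total, under which Eno3 was lower in libraries 7 and 8. Ratios of single genes moved by over 1.5 times in Vegfa and Pdk2. The log2 ratio of Vegfa, 3.56, was 5.04 without mitosis-rich, S-phase-rich, and Jchain-rich cells. That of Pdk2, 6.71 from 1 UMI in library 8, was 4.92 without these cells, with 3 UMIs standing for 0, and 7.63 with the mean of per-cell CPM. With the mean of per-cell CPM, 6 families had 1 leader throughout, since Pfkl led in library 5. Without mitosis-rich, S-phase-rich, and Jchain-rich cells, Pdk1 led its family in library 7 too. Of the 42 Vegfa UMIs of library 5, 26 lay in mitosis-rich cells and 2 in S-phase-rich cells. The 1 Pdk2 UMI of library 8 lay in a mitosis-rich cell. The cause of the moves was not tested further. Genes with under about 100 UMIs, such as Pfkfb2, Ldhb, and Pdk2 in libraries 7 and 8, are limited by depth.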

Other observations

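The libraries were in no group by their labels, and for most of the 34 genes their values fell into separate clusters. For 26 of the 34 genes libraries 7 and 8 were both above libraries 5 and 6, and for 8 both were below (Hk1, Gpi1, Pfkm, Pfkfb4, Aldoc, Ldhb, Pdk2, and Pdk3). Counting error covers at least 1 of these differences in Eno3, Pfkfb2, Pfkm, and Pdk3, and the libraries were interleaved for Eno3 or Pfkfb2 under some scalings. Over all 13918 genes, 45.3% had libraries 7 and 8 both above and 40.3% both below. The share of UMIs in the 19 glucose-to-lactate genes was 0.205%, 0.211%, 0.496%, and 0.501% in libraries 5, 6, 7, and 8, that of Hk2 in the hexokinases was 46.2%, 38.9%, 85.7%, and 89.0%, and Slc16a3 stood at 0.803, 1.12, 12.2, and 14.0 CPM. Which libraries are Bregs-CpG and which are Bregs-TLR was not determined here.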
